A study of Mus musculus with 28 samples.

Results

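Dorsal skin of 10-day-old (P10) mice with a keratinocyte deletion of Gab1 was compared with skin of P10 control mice. The mutants carried K14-cre and a floxed Gab1 allele (Gab1fl). Cre recombinase driven by the keratin 14 promoter acts in the basal keratinocytes of the epidermis and hair follicle and their descendants, and is not active in the dermal, fat, muscle and blood-derived cells of the same skin. The labels call the other group controls and do not give their genotype. Both groups were on a mixed C57/BL6 and 129Ola background. Of the 28 arrays of the study 12 belonged to the comparison, namely the 6 P10 mutants and the 6 P10 controls (replicates 5 to 10) that shared their 2 BeadChip slides. The other arrays were 4 P10 controls on other slides and 12 arrays of 15-day-old (P15) mice, 6 mutant and 6 control. An Illumina BeadChip reports each probe as the mean brightness of many identical beads. Values are given below as normalized log2 signals, on which a difference of 1 is a 2-fold change, and each difference is mutant minus control, fitted within slides with limma. A gene was called where its Benjamini-Hochberg adjusted p over the 9045 tested genes was below 0.05.

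Gab1 is a docking protein that is phosphorylated below receptor tyrosine kinases, among them the EGF, FGF and HGF receptors. It recruits the phosphatase Shp2 (gene Ptpn11) and phosphatidylinositol 3-kinase and so sustains the Ras and ERK cascade. ERK activity switches on immediate early transcription factors such as Egr1 and feedback inhibitors such as the dual-specificity phosphatases (Dusp), and in keratinocytes it bears on growth, differentiation and the hair cycle. At this age the follicles of mouse back skin are in a growth phase.

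The deleted gene was examined first. Gab1 signals lay between 9.85 and 10.17 on the 6 mutant arrays (median 9.97) and between 11.02 and 11.64 on the 6 control arrays (median 11.25). The groups did not overlap, and the difference was -1.31 (SE 0.11, limma adjusted p = 1.48e-08), with -1.49 on slide 1 and -1.12 on slide 2. Which exons the allele loses is not stated in the labels. In whole skin, fewer cells of a type and less RNA per cell cannot be told apart, for Gab1 or for any gene below.

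Epidermal markers Krt5, Krt14 and Krt10 were strongly detected on all 12 arrays. Median raw signals ran from 105 to 133 on mutant and from 83.3 to 113 on control arrays, and 10756 to 13610 probes were detected on mutant arrays against 10546 to 12276 on control arrays. On each slide the mutants occupied positions A to C and the controls D to F, so genotype and position cannot be told apart. Signals correlated across probes at 0.978 to 0.995 among mutants and 0.950 to 0.991 among controls. A principal component with 40.5% of the variance separated the genotypes. The next, with 24.7%, followed the slide, with scores of -4.97 to -23.0 on slide 1 and 0.94 to 33.8 on slide 2. Controls 8 and 9 of slide 2 had its highest scores (33.8 and 24.1) and controls 5 to 7 of slide 1 its lowest (-12.2 to -23.0). Control 7 stood apart in high muscle signals. It also carried both Xist, the X inactivation RNA (5.91), and the Y-linked Eif2s3y (9.46), where most arrays were high in 1 of them. Mutant 3, high in Xist (8.47), had an Eif2s3y signal of 6.08, against 4.57 to 4.79 on the other arrays high in Xist. Fits were repeated without control 7, without controls 8 and 9, with a muscle score as a covariate, and on each slide alone (3 mutants and 3 controls), and many of the calls that these ended are given beside the gene. Whether each replicate was an animal of its own is not stated, and the p-values cover the variation among these arrays, whatever its source.

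Of the 9045 tested genes 1687 (18.7%) were called, 849 higher (9.39%) and 838 lower (9.26%) in mutants. Most differences were modest: the absolute difference of called genes had a median of 0.57 and quartiles of 0.43 and 0.78. At least 2-fold calls numbered 133 higher genes (1.47%) and 78 lower genes (0.862%). The groups were separate for more falls than rises. All 6 mutants lay below all 6 controls for 443 of the 838 genes called lower, against 253 of the 849 called higher having all 6 mutants above all 6 controls. Over all tested genes, called or not, the shares were 6.00% entirely below and 3.32% entirely above, 9.32% in all. Of the 15 largest falls 14 did not overlap between groups, against 2 of the 15 largest rises. Of 418 called genes with a further tested probe, 333 (79.7%) had the same sign on it. Without control 6, the array that moved the counts most, 509 genes were higher and 540 lower.

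Among immediate early genes and phosphatases of the cascade, Egr1 and Dusp2 fell most. Egr1, a zinc finger transcription factor induced by ERK, had signals of 10.65 to 11.41 in mutants (median 11.01) and 12.23 to 12.77 in controls (median 12.68). The highest mutant lay below the lowest control, and Egr1 fell by 1.60 (SE 0.12, adjusted p = 9.69e-10). Its relative Egr2 gave 9.67 to 10.05 in mutants and 10.63 to 11.11 in controls, again without overlap (difference -0.96, SE 0.11, adjusted p = 1.13e-06). Dusp2, a nuclear phosphatase of ERK, gave 9.40 to 9.76 in mutants and 10.58 to 10.96 in controls (difference -1.15, SE 0.13, adjusted p = 8.34e-07), and another Dusp2 probe gave -1.07. Dusp6, the cytoplasmic ERK phosphatase that serves as a common readout of the cascade, gave 10.53 to 10.79 in mutants and 11.17 to 11.84 in controls (difference -0.79, SE 0.12, adjusted p = 4.39e-05).

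Egr1 binds GC-rich sites, and the letters GCGNGGGCG were therefore searched on both strands in the 250 bases before the annotated start of each gene (RefSeq promoters, GRCm38.p6, found for 7303 of the 9045 genes). The motif was present in 737 of these promoters (10.1%). It was in 54 of 651 promoters of genes called lower (8.29%), 64 of 673 of genes called higher (9.51%) and 3 of 58 of genes at least 2-fold lower. The share was thus no higher among genes that fell. Among those with it were Dusp2 and Ptpn11, the gene of the Gab1 partner Shp2, whose windows are shown because both genes fell and both belong to the cascade. Capitals mark the matches. Dusp2 (chr2:127335909-127336158, plus strand) has 1 match and Ptpn11 (chr5:121191398-121191647, minus strand) has 3 that overlap one another.
Dusp2: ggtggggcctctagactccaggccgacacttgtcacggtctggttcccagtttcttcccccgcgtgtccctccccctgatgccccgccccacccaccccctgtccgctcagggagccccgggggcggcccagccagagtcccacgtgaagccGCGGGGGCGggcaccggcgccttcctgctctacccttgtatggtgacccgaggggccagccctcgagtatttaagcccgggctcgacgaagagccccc
Ptpn11: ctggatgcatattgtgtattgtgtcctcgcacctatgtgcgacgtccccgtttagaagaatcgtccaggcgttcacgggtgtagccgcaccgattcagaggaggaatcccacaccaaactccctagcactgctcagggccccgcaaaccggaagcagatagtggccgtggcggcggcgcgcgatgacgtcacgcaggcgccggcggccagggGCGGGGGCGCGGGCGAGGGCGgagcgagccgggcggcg

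Across the list of ERK feedback inhibitors and targets, 6 of 14 tested genes fell and none rose, with a median difference of -0.37 beside -0.012 over all genes. Between 3 and 6 fell when single arrays were left out, 3 without control 6. Besides Dusp6 these were Phlda1, a feedback gene of receptor tyrosine kinases (-0.73), Map2k3, a kinase of the p38 branch (-0.44, not called on slide 2 alone), Dusp7 (-0.56), Dusp4 (-0.46) and Rasa2, a Ras GTPase-activating protein (-0.61). Members that did not pass included Spry4 (-0.30), Etv5 (-0.15), Etv4 (-0.06), Ccnd1 (-0.13) and Myc (0.61). The Dusp family as a whole had 6 of 16 members called, all lower (37.5% called, beside 18.7% of all genes). This family, defined by its symbol, was picked because at least 5 members were called, mostly one way, so its direction is no result. Its member Dusp14 gave 10.40 to 10.67 in mutants and 11.09 to 11.32 in controls (difference -0.64, adjusted p = 0.000172). The Dusp14 call ended when the slide term was dropped or made random. Immediate early genes did not move as a group, with 2 of 15 lower and 2 higher (4 higher with median scaling in place of quantile normalization). Fos, the partner of Jun in AP-1, rose by 0.43 (8.39 to 8.67 in mutants, 7.80 to 8.35 in controls, adjusted p = 0.00363), although not on slide 2 alone, and Ccn1 rose by 0.55. Jun (0.06), Junb (0.11) and Egr3 (-0.22) did not pass.

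**Figure D1:**
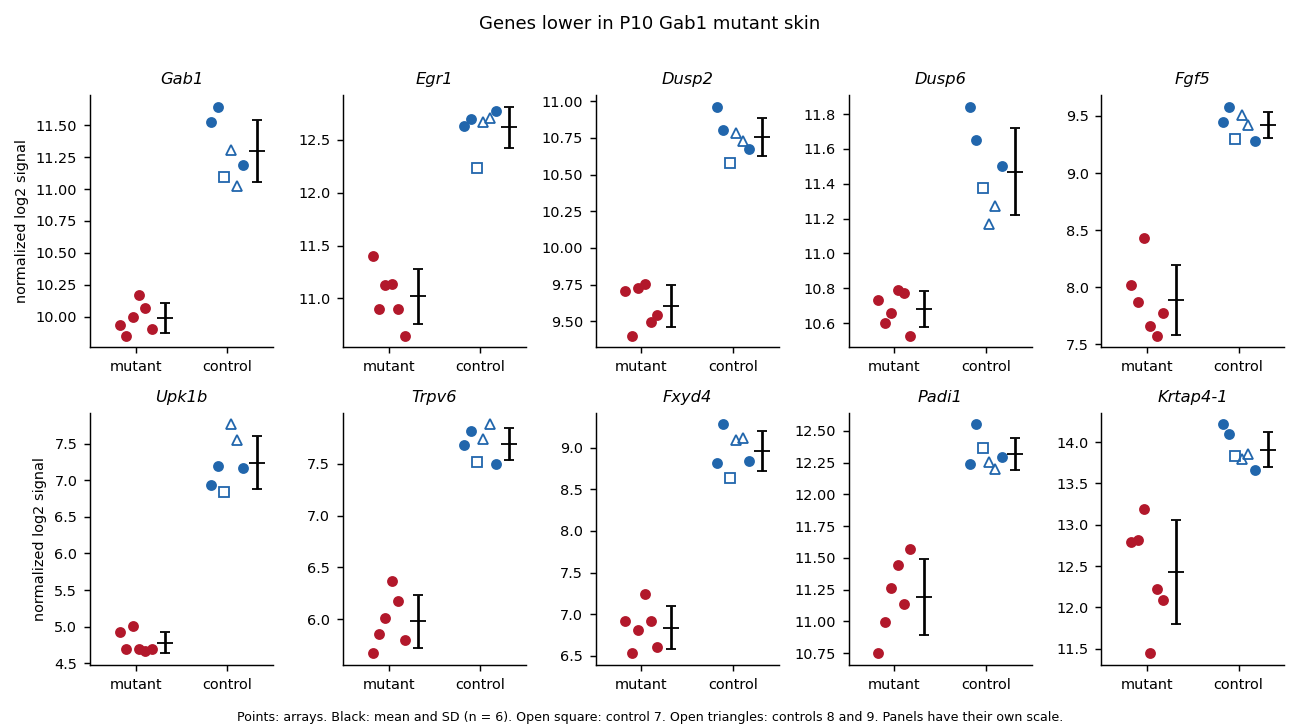
Normalized log2 signals of 10 genes on the 6 mutant (red, left) and 6 control arrays (blue, right) at P10, with the mean and SD in black. In all 10 panels the highest mutant lies below the lowest control, and Upk1b has the mutant points at 4.67 to 5.01.

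Upstream of ERK, docking proteins and their partners had 3 of 13 genes lower and none higher (23.1% called, beside 18.7% of all genes). The median was -0.18, and 11 of the 13 differences were negative. The 3 called genes were Gab1 itself, the phosphatidylinositol 3-kinase subunit Pik3cb (-0.72) and Ptpn11 (-0.28), with 12.34 to 12.59 in mutants and 12.64 to 12.82 in controls. The Pik3cb call ended on slide 2 alone. The Ptpn11 call ended there, without each of 6 single arrays and with array brightness as a covariate. Of 11 EGF receptor family genes, Hbegf, a ligand of the EGF receptor, fell by 0.73 (6.30 to 7.07 in mutants, 7.26 to 7.80 in controls, adjusted p = 0.000788). Errfi1, an inhibitor of that receptor, fell by 0.44, a call that ended on slide 2 alone, without mutant 2 or control 5 and with array brightness as a covariate, and Egfr itself (-0.07) did not pass.

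FGF genes went both ways. Fgf5, the signal that ends hair growth in mice, had signals of 7.57 to 8.43 in mutants (median 7.82) and 9.28 to 9.58 in controls (median 9.43). These ranges lay well apart, and the difference was -1.53 (SE 0.16, adjusted p = 1.95e-07). Fgf22 fell by 0.63 and Fgf1 by 0.49, while the FGF-binding protein Fgfbp3 rose by 0.56 and the receptor Fgfr2 by 0.59, so that 3 of the 13 FGF genes were lower and 2 higher. Wnt genes split as well, 4 of 25 higher (8 with median scaling, 7 without mutant 4) and 3 lower, with the Wnt inhibitor Apcdd1 higher (0.62) and the Wnt and BMP inhibitor Sostdc1 lower (-0.74), neither of them on slide 2 alone. Of 16 BMP genes 2 rose, the target Id2 (0.32) and the receptor Bmpr1a (0.74, but -0.40 from another probe, itself called), and 2 fell, the inhibitory Smad gene Smad6 (-0.37) and the activin and BMP antagonist Fst, with 7.41 to 7.80 in mutants and 7.95 to 8.66 in controls (difference -0.71, adjusted p = 0.00241). The Id2 and Bmpr1a calls ended on slide 2 alone and without mutant 1 or control 6, among others. None of 5 tested Hedgehog genes passed, Smo giving -0.12. The Notch list had 3 of 11 genes higher and none lower (27.3% called, beside 18.7% of all genes), but 6 differences were negative and the median was -0.06. Its modifier Mfng rose by 1.25 (7.90 to 8.64 in mutants, 6.39 to 7.24 in controls, adjusted p = 0.000106) and the ligand Jag1 by 1.18, although Jag1 did not pass on slide 2 alone.

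Several of the 15 largest falls, described here by gene and not as a list, were of membrane and transport genes. Upk1b, a uroplakin tetraspanin of barrier epithelia, gave 4.67 to 5.01 in mutants and 6.84 to 7.77 in controls. Its probe was detected on 0 of 6 mutant and 6 of 6 control arrays, so the change is a bound of at least 3.10-fold lower (adjusted p = 2.32e-10). Trpv6, an epithelial calcium channel, gave 5.67 to 6.37 in mutants and 7.50 to 7.88 in controls (difference -1.71, SE 0.19, adjusted p = 1.02e-06). Fxyd4, a regulator of the sodium pump, gave 6.53 to 7.24 in mutants and 8.64 to 9.29 in controls (difference -2.13, SE 0.25, adjusted p = 2.24e-06). None of the 3 genes overlapped between groups. Slc23a3, a membrane transporter (-1.80), Chrna4, a nicotinic acetylcholine receptor subunit (-1.78), Upp1, the uridine-cleaving phosphorylase (-1.66), and Cmah, which makes N-glycolylneuraminic acid (-1.72), fell without overlap too. The other members of the 15 largest falls included the casein gene Csn3 (-1.60), the fatty acid-binding protein Fabp9 (-1.57) and the histone H2A variant gene H2al1e (-2.03), all 3 without overlap.

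In the cornified layer genes of the same families went different ways. Of 24 cornified envelope genes 6 fell and 2 rose, and the median was -0.05. Lce3c had 5.61 to 7.26 in mutants (median 6.46) and 8.76 to 9.47 in controls (median 9.14), a difference of -2.68 (SE 0.49, adjusted p = 0.00044). Its neighbour in the family Lce3b fell by 1.79, with differences of -0.45 on slide 1 and -3.14 on slide 2, and its call ended on slide 1 alone, with the muscle covariate and without controls 8 and 9. Lce1f moved the other way, at 9.99 to 10.78 in mutants and 8.57 to 10.18 in controls (difference 1.02, adjusted p = 0.000368), and Lce1g rose by 1.62. Loricrin (Lor, -0.05) and Flg2 (0.33) did not pass. Probes of such near-identical genes can share transcripts, which was not tested. The suprabasal list had 1 of 12 genes called, Krt80 (-0.71), and the basal keratinocyte list 1 of 14 each way, the integrin Itga3 (-0.43, called on neither slide alone nor with the muscle covariate) and the hemidesmosome linker Dst (0.68, not on slide 2 alone), so both were below the 18.7% of all genes.

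Surface proteases and defence genes went both ways. Klk15, a skin-type kallikrein protease, gave 5.08 to 5.53 in mutants and 6.46 to 7.08 in controls (difference -1.50, SE 0.16, adjusted p = 3.5e-07), whereas Klk6 gave 9.62 to 10.79 in mutants and 8.52 to 9.11 in controls (difference 1.42, SE 0.17, adjusted p = 2.47e-06). Prss8, a channel-activating protease of the barrier, fell by 0.50 and the protease inhibitor Spink6 by 0.89. Defb4, an antimicrobial beta-defensin, was detected on 4 of 6 mutants and 0 of 6 controls and was at least 1.68-fold higher (adjusted p = 1.01e-05). Krt42, a keratin of the K17 group, was higher (7.41 to 8.38 in mutants, 6.22 to 6.87 in controls, difference 1.22) and the antimicrobial S100 gene S100a7a lower (10.14 to 10.63 in mutants, 11.02 to 11.87 in controls, difference -0.88). These last genes again did not overlap between groups.

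Genes of barrier lipids, of junctions and of sterol synthesis had more falls than rises. The share called was 24% for barrier lipids, 41.7% for desmosomes, 38.5% for tight and gap junctions and 31.6% for sterol synthesis. Of all tested genes 18.7% were called, so the barrier lipid list lay nearest the background. Of 25 barrier lipid genes 5 fell and 1 rose, with a median of -0.22. The fatty acid transporter Slc27a4 gave 7.99 to 8.50 in mutants and 8.53 to 9.28 in controls (difference -0.70, adjusted p = 0.000694), the cholesterol sulfotransferase Sult2b1 fell by 0.65 and the lipase Lipk by 0.88. Of 12 desmosome genes 4 fell and 1 rose. Dsg3, the desmoglein of the lower epidermis, gave 5.33 to 5.90 in mutants and 6.09 to 6.80 in controls (difference -0.79, adjusted p = 0.000387). Plakoglobin (Jup) fell by 0.63, a call that ended without mutant 2 or without control 6, which left 1 desmosome gene lower, and 2 were lower without mutant 1, mutant 3 or control 5 and with the muscle covariate. Tight and gap junction genes had 4 of 13 lower, among them occludin (Ocln, -0.43) and the connexin Gjb2 (-0.30), and 1 higher, the scaffold Tjp1 (1.08). None of these 3 named genes passed on slide 2 alone, and 1 junction gene was lower with the muscle covariate or without control 6, and 2 without mutant 1, 2, 5 or 6 or control 8 or 9. Sterol synthesis had 6 of 19 lower and none higher, with a median of -0.24. Idi2, an isopentenyl diphosphate isomerase, led with 5.29 to 7.76 in mutants and 6.95 to 9.87 in controls (difference -2.15, SE 0.32, adjusted p = 5.22e-05), and the groups overlapped. Insig1, the sterol sensor, fell by 0.68 and the squalene epoxidase Sqle by 0.50, neither on slide 2 alone.

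Within the follicle the inner root sheath, the sleeve that moulds the growing shaft, was lower while other compartments varied. Of its 11 tested genes 6 fell and none rose, and the median was -0.41. Padi1, which converts arginine to citrulline in sheath proteins, gave 10.75 to 11.57 in mutants (median 11.20) and 12.20 to 12.55 in controls (median 12.27), without overlap (difference -1.13, SE 0.13, adjusted p = 2.33e-06). Tchhl1, a trichohyalin-like gene, gave 11.81 to 12.56 in mutants and 12.82 to 13.40 in controls (difference -0.93), and the sheath keratin Krt72 gave 12.72 to 13.16 in mutants and 13.29 to 14.05 in controls (difference -0.76, adjusted p = 0.000237). Krt71 (-0.03) and Gata3 (0.16) did not pass. Keratin-associated proteins, which crosslink keratin in the shaft, had 13 of 28 lower and 3 higher with a median of -0.40. That is 57.1% called, beside 18.7% of all genes, in a symbol family picked because its calls went mostly one way. Krtap4-1 fell by 1.48 (11.44 to 13.19 in mutants, 13.66 to 14.22 in controls, adjusted p = 2.25e-06), Krtap5-4 by 1.31 and Krtap4-7 by 0.78. Hair shaft keratins gave 2 of 10 higher, Krt35 (0.59) and Krt82 (0.57), and both calls ended with median scaling and on slide 2 alone. With median scaling that list had 0 genes higher, 2 lower and a median of -0.32.

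In the outer root sheath and its companion layer 4 of 12 genes were lower and none higher (33.3% called, beside 18.7% of all genes). The homeobox gene Barx2 gave 7.62 to 8.16 in mutants and 8.19 to 8.97 in controls (difference -0.73, adjusted p = 0.00052), the follicle stem cell factor Sox9 fell by 0.69 and the companion layer keratin Krt75 by 0.62. The Sox9 and Krt75 calls ended without controls 8 and 9, and with them gone 1 gene of the list was lower. None of the 13 dermal papilla genes passed, at a median of 0.03. In the sebaceous list 3 of 11 fell and none rose (27.3% called, beside the same 18.7%). These were the melanocortin receptor Mc5r (-1.01, 6.30 to 6.87 in mutants and 6.89 to 8.28 in controls), the lipid droplet protein Cidea (-0.60) and the duct keratin Krt79 (-0.47). The Krt79 call ended under many alternatives, the omission of any 1 of the 6 mutants among them, and the Cidea call without a fixed slide term and with the muscle covariate. Of 12 melanocyte genes 1 passed (8.33%), Tyrp1 (0.76 from its brightest probe and -0.20 from another). Its call ended under 16 of 29 alternatives, median scaling and slide 2 alone among them.

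**Figure D2:**
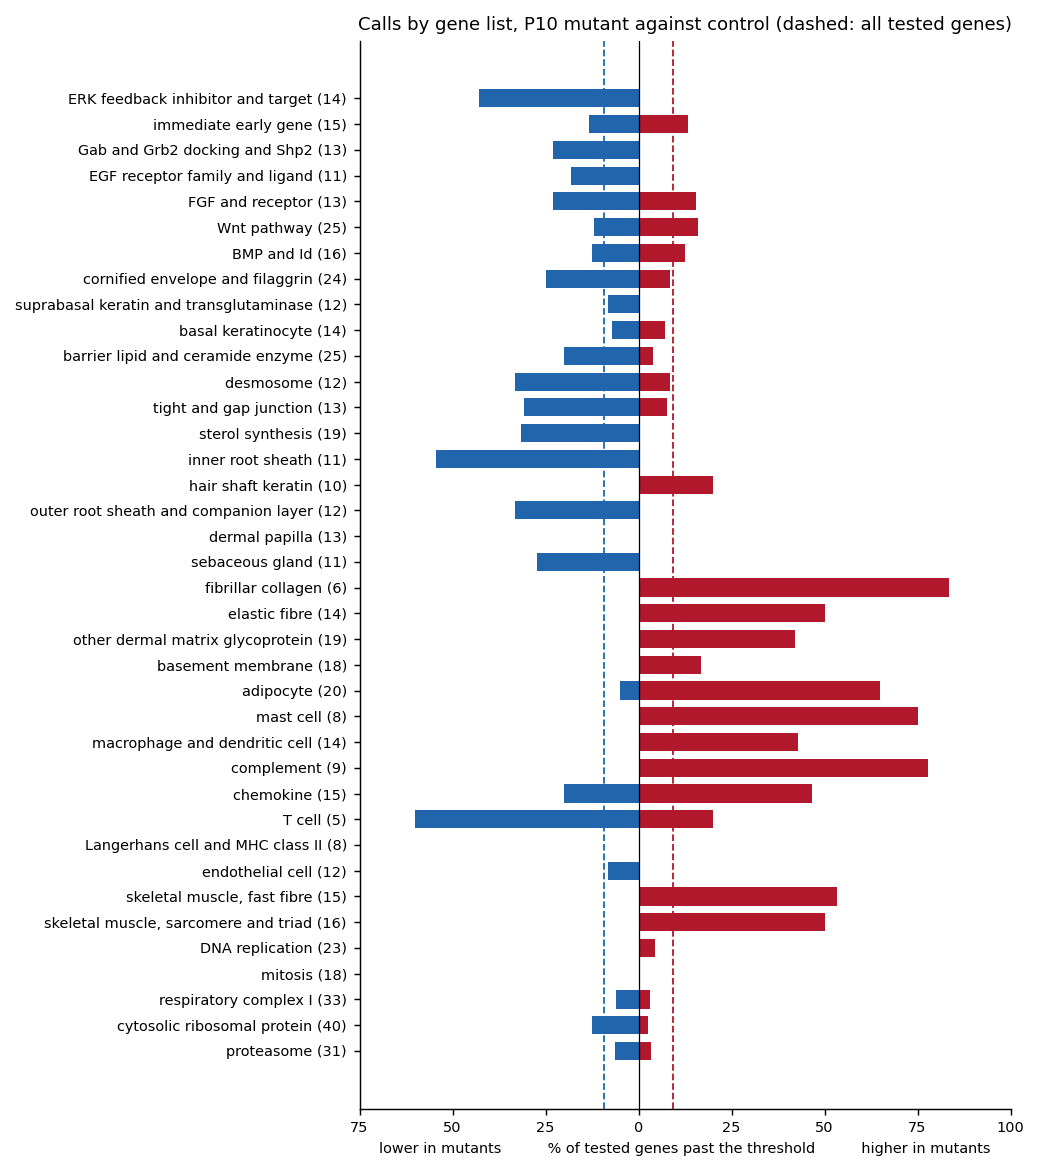
Share of tested genes called lower (blue, left) and higher (red, right) in mutants for 38 gene lists, with the number tested in brackets and dashed lines at the 9.26% lower and 9.39% higher of all tested genes. Bars for the inner root sheath and ERK feedback point left and those for collagen, complement, mast cell and fat point right, while proliferation and housekeeping lists stay near or inside the lines.

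Genes of the dermal matrix, made largely by fibroblasts, rose in mutants. Of 6 fibrillar collagen genes 5 rose and none fell, with a median of 1.04. Col3a1, the collagen III chain, gave 11.87 to 12.70 in mutants (median 12.25) and 9.85 to 11.35 in controls (median 10.56), without overlap (difference 1.78, SE 0.28, adjusted p = 8.78e-05), and a dimmer Col3a1 probe gave 0.64. Col5a2 rose by 1.02 and Col5a1 by 0.56, while Col1a1 (0.53) did not pass. The beaded-filament chain Col6a2 gave 10.51 to 11.21 in mutants and 9.54 to 10.27 in controls (difference 0.95, adjusted p = 1.7e-05). Over the whole Col family 9 of 20 genes rose and none fell (45% called, beside 18.7% of all genes). This family too was picked because its calls went mostly one way. Of 14 elastic fibre genes 7 rose (4 with median scaling) and none fell (median 0.46), led by the fibulin Fbln2 (0.60), the crosslinking enzyme Loxl1 (0.65) and Emilin2 (0.65). Other matrix proteins had 8 of 19 higher and none lower: Thbs3, a thrombospondin, gave 7.22 to 8.17 in mutants and 6.39 to 7.08 in controls (difference 1.15, adjusted p = 1.95e-05), Tnxb (tenascin X) rose by 0.83 and Igfbp6, an IGF-binding protein, by 1.06.

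Enzymes that mature collagen had 4 of 16 higher and 1 lower, among them the procollagen enhancer Pcolce (0.92), the collagen chaperone Serpinh1 (0.75) and the prolyl hydroxylase P3h1 (0.65). Fibroblast genes had 6 of 15 higher (3 without mutant 2) and none lower, for example Dpt (dermatopontin, 0.83) and Thy1, a surface protein of fibroblasts and T cells (0.65, 11.41 to 11.75 in mutants and 10.81 to 10.98 in controls). Of the collagen enzymes 31.25% and of the fibroblast genes 40% were called, beside 18.7% of all genes. Basement membrane genes, with 3 of 18 higher and none lower (16.7% called), lay nearer the background. These 3 were Sparc, a collagen-binding matrix protein (0.73), the collagen IV chain Col4a1 (0.62) and the perlecan gene Hspg2 (0.58), and with median scaling in place of quantile normalization none of them passed. That scaling also ended the calls of Col5a1, Loxl1 and Thy1, and slide 2 alone those of Pcolce and P3h1. The fibrillar collagen count was 6 with the muscle covariate, 4 without control 7 and 5 without controls 8 and 9. Summed as a mean deviation over the 6 fibrillar genes, mutants lay between 0.28 and 0.80 and controls between -0.93 and -0.11.

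Adipocyte genes rose as well, 13 of 20 against 1 lower (70% called, beside 18.7% of all genes), with a median of 0.64. Adipoq, the adipokine adiponectin, gave 12.20 to 13.01 in mutants (median 12.43) and 11.19 to 12.21 in controls (median 11.44), the highest control being control 7 (difference 0.90, SE 0.18, adjusted p = 0.000788). The droplet protein Plin4 rose by 0.85, and neither gene passed on slide 1 alone. Lipe, hormone-sensitive lipase, rose by 0.92 from its brightest probe, while another gave -0.22. The gene that fell was Cidea (-0.60), which is also a sebaceous gene. Over the list, mean deviations were -0.03 to 0.74 in mutants and -0.64 to 0.12 in controls. The count of higher genes was 15 without control 7, 6 without controls 8 and 9 and 5 with the muscle covariate.

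Imprinted and insulin-like growth genes gave 7 of 13 higher and 2 lower (69.2% called, beside 18.7% of all genes), with a median of 0.62. Nnat, a small membrane protein, rose by 1.04 (7.21 to 8.65 in mutants, 6.40 to 7.32 in controls) and Ndn (necdin) by 0.69, Nnat not on slide 2 alone and Ndn not on slide 1 alone. Dio3, the deiodinase that inactivates thyroid hormone, went strongly the other way at 5.19 to 5.84 in mutants and 6.73 to 7.33 in controls, without overlap (difference -1.60, SE 0.17, adjusted p = 4.23e-07). Its probe was detected on 3 of 6 mutants. Dlk1, whose imprinted cluster also holds Dio3, rose by 1.45 and was named after its value was seen. With the muscle covariate 3 of the 13 were higher.

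**Figure D3:**
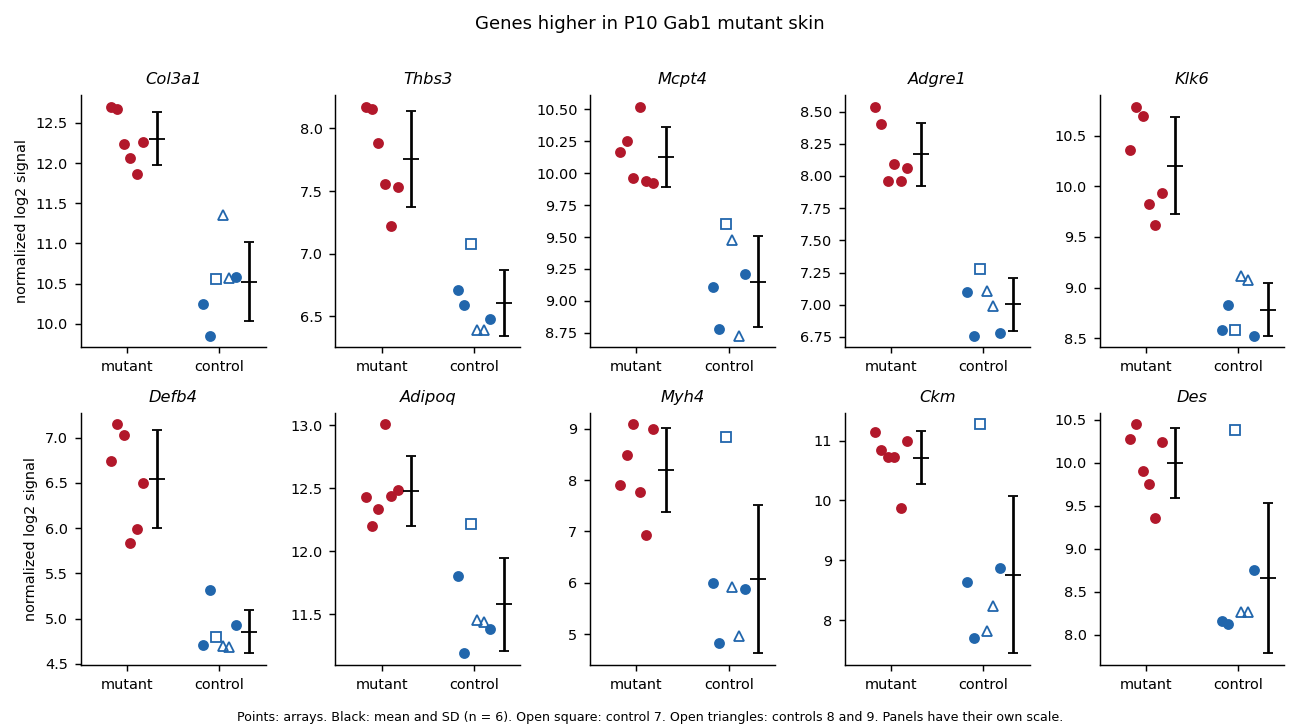
Normalized log2 signals of 10 genes on the 6 mutant (red, left) and 6 control arrays (blue, right) at P10, with the mean and SD in black, control 7 as an open square and controls 8 and 9 as open triangles. Groups are separate for Col3a1, Thbs3, Mcpt4, Adgre1, Klk6 and Defb4, whereas control 7 lies within or above the mutants for Myh4, Ckm and Des and at the lower edge of the mutants for Adipoq.

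Mast cell and macrophage genes rose. Of the mast cell list 75% and of the macrophage and dendritic cell list 42.9% were called, beside 18.7% of all genes. Of 8 mast cell genes 6 rose and none fell, with a median of 0.75. The mast cell chymase Mcpt4 gave 9.92 to 10.52 in mutants (median 10.06) and 8.72 to 9.60 in controls (median 9.16), without overlap (difference 0.98, SE 0.18, adjusted p = 0.000594). The tryptase Tpsab1 rose by 1.31 and Hdc, the histamine-making enzyme, by 0.78, although Hdc did not pass on slide 1 alone, with the muscle covariate or without controls 8 and 9. Of 14 macrophage and dendritic cell genes 6 rose, or 3 without mutant 1 or control 6, and none fell. Adgre1, which encodes the macrophage marker F4/80, gave 7.96 to 8.54 in mutants and 6.76 to 7.28 in controls (difference 1.17, SE 0.20, adjusted p = 0.000269), also without overlap, and the mannose receptor Mrc1 rose by 0.89. Without controls 8 and 9 there were 3 mast cell genes higher. With the muscle covariate 1 mast cell and 2 macrophage genes were higher, Mcpt4 and Adgre1 keeping their calls under all 29 alternatives tried. None of 8 Langerhans cell and MHC class II genes passed, and Cd74, their brightest, differed by 0.09.

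Complement genes, which macrophages and fibroblasts both make, had 7 of 9 higher and none lower. The share called was 77.8% here and 66.7% for chemokines, beside 18.7% of all genes. Cfb (factor B) was detected on 6 of 6 mutants and 0 of 6 controls and was at least 1.39-fold higher (adjusted p = 0.00158). The C1 inhibitor Serping1 rose by 0.54, although on neither slide alone, and C1qa, also a macrophage gene, by 0.87. With the muscle covariate 3 of the 9 were higher. Of 15 chemokines 7 rose, among them Ccl7, which draws in monocytes, at 6.42 to 7.22 in mutants and 5.17 to 6.24 in controls (difference 1.08, adjusted p = 0.00127), and 4 did with the muscle covariate. The 3 that fell were Cxcl12 (-1.05 from its brightest probe, -0.03 from another), Ccl25 (-0.84) and Ccl27a, a keratinocyte chemokine that attracts T cells to skin, with 10.71 to 11.48 in mutants and 11.65 to 12.24 in controls (difference -0.95, adjusted p = 0.000495).

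Genes of the T cell receptor complex fell. Cd3g gave 5.83 to 6.27 in mutants (median 6.01) and 7.08 to 7.63 in controls (median 7.50), a difference of -1.39 (SE 0.23, adjusted p = 0.000122). Cd3e gave 5.07 to 5.52 in mutants and 6.09 to 7.07 in controls (difference -1.20, adjusted p = 0.000601), being detected on 3 of 6 mutants, and Cd3d fell by 0.91. The groups did not overlap for Cd3g or Cd3e, and both calls held under all 29 alternatives tried. Of 22 T cell genes 5 passed the filter on dim probes, and of these 3 fell, Thy1 rose and 1 did not pass. That is 80% called, beside 18.7% of all genes. Without the filter the list median was -0.065, against -0.91 as fitted. The red cell anion exchanger Slc4a1 also fell (-1.05), as 1 of 4 erythroid genes tested, and endothelial genes had 1 of 12 called, Tek (-0.50), whose call ended under many alternatives.

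Striated muscle genes headed the rises, with wide spread and overlap. Muscle in a dorsal skin sample comes from the panniculus layer or from trunk muscle, and the amount taken with the skin was not recorded in the labels. Myh4, the fast IIb myosin heavy chain, gave 6.93 to 9.09 in mutants (median 8.19) and 4.83 to 8.84 in controls (median 5.90). Ckm, muscle creatine kinase, gave 9.87 to 11.15 in mutants (median 10.79) and 7.71 to 11.28 in controls (median 8.43). In both genes control 7 was the highest control, above all mutants for Ckm. The differences were 2.13 (SE 0.55, adjusted p = 0.00806) for Myh4 and 1.96 (SE 0.64, adjusted p = 0.0325) for Ckm, and Ckm lost its call under most omissions of a single array. Neither gene passed on slide 1 alone or with the muscle covariate. Of 15 fast fibre genes 8 rose and none fell, and of 16 sarcomere genes 8 rose and none fell. That is 53.3% and 50% called, beside 18.7% of all genes. Summed over the 15 fast fibre genes, mean deviations were 0.06 to 1.11 in mutants and -1.65 to 1.37 in controls, control 7 giving the 1.37. Without control 7 there were 14 fast fibre genes higher, without control 6 there were 4, without mutant 1, 2 or 6 or control 5 there were 5, and without controls 8 and 9 there were 3. Without control 6 there were 4 sarcomere genes higher. The part of muscle content in the other rises was not tested beyond the fits with the muscle covariate. Smooth muscle genes had 2 of 11 higher and 1 lower, Tagln (-0.73), with 27.3% called.

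**Figure D4:**
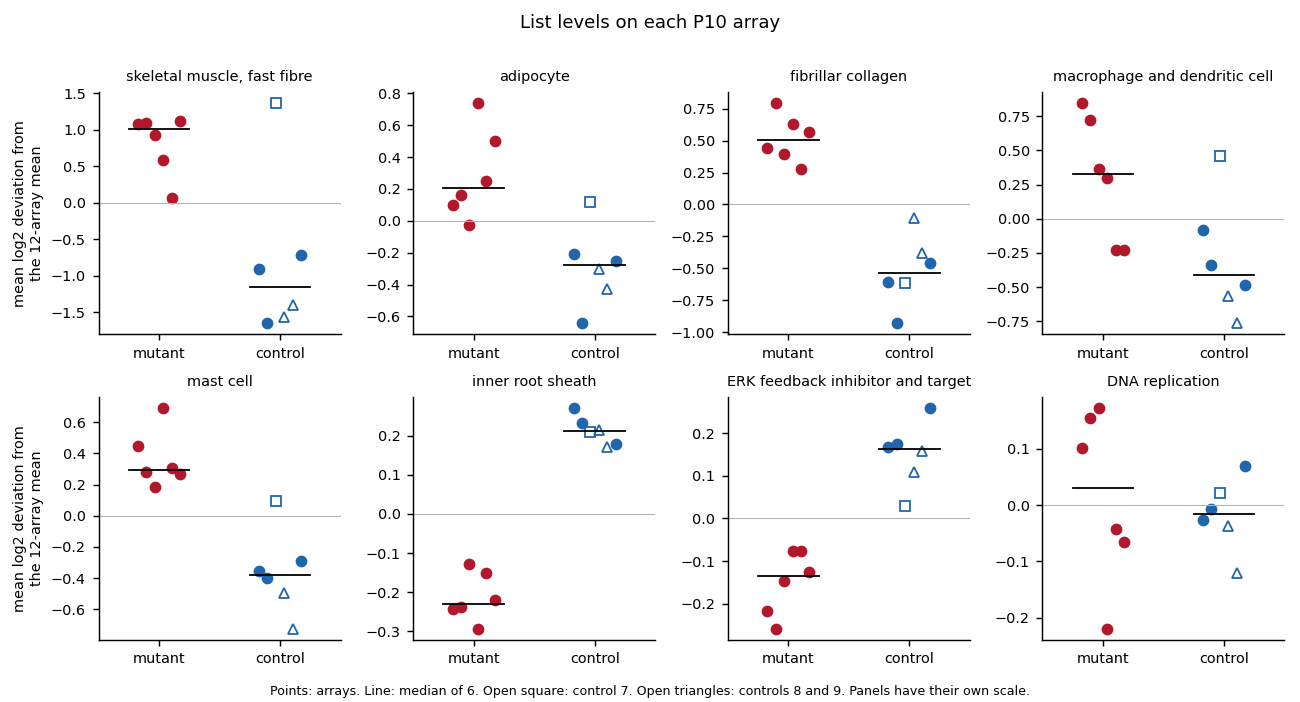
Mean log2 deviation of each list from its 12-array mean on the 6 mutant (red, left) and 6 control arrays (blue, right), with the median as a line, control 7 as an open square and controls 8 and 9 as open triangles. Inner root sheath, ERK feedback, fibrillar collagen and mast cell lists separate the groups completely. The muscle, adipocyte and macrophage lists overlap, with control 7 the highest control in each, and DNA replication shows no separation.

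The 15 largest rises also held Mup2 and Wfdc18, which are not muscle genes. Mup2, a major urinary protein, gave 8.48 to 10.49 in mutants and 6.31 to 8.49 in controls (difference 1.85, adjusted p = 0.00559), with the ranges meeting. Wfdc18, a secreted whey-acidic-protein-domain gene, gave 9.20 to 10.57 in mutants and 7.28 to 8.74 in controls (difference 1.84, SE 0.30, adjusted p = 0.000115), with no overlap and 2.63 on slide 1 against 1.05 on slide 2. Further muscle genes of that set, Cox8b, the muscle form of a cytochrome oxidase subunit (1.85), and Pygm, muscle glycogen phosphorylase (1.84), had control 7 as their highest control (10.72 and 7.30). Cox8b did not pass on slide 1 alone or with the muscle covariate.

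Energy metabolism lists differed in their share of calls. Complex I had 1 of 33 genes higher and 2 lower (median 0.02), and ATP synthase 1 of 16 each way. Complexes II to IV had 6 of 25 higher and none lower, but 3 of the 6, Cox8b, Cox6a2 and Cox7a1, are muscle forms. There were 3 higher without mutant 1, mutant 2, control 5 or control 6, and the list median was -0.11 with median scaling, against 0.16 as fitted. Glycolysis had 5 of 15 higher and 1 lower, and 1 higher without mutant 2, mutant 6, control 5 or control 6. Of 18 citric acid cycle genes 4 rose, led by Dld (1.64) and Idh2 (1.00). Dld differed by 2.62 on slide 1 and 0.66 on slide 2 and Idh2 by 1.53 and 0.47, and neither passed on slide 2 alone. Pcna, the DNA polymerase clamp, showed the same split (2.80 on slide 1, 0.55 on slide 2, fitted 1.67, adjusted p = 0.0205). It was 1 of 23 DNA replication genes called (median 0.02), and its call ended without mutant 1 or 2 or control 6 or 7. None of 18 mitosis genes passed in the limma fit, at a median of -0.12. Mitochondrial ribosomal proteins (6 of 65 higher, 1 lower, with 2 higher without mutant 1, 2 or 3 or control 5 or 7), proteasome subunits (1 of 31 higher, 2 lower) and splicing factors (2 of 33 higher, 1 lower) had 10.8%, 9.68% and 9.09% of genes called, beside 18.7% of all genes.

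Gene families defined by their symbols were counted as well, and those given were picked because at least 5 members were called, mostly one way, so their direction is no result. Leucine-rich repeat (Lrrc) genes had 6 of 21 lower and none higher (28.6% called, beside 18.7% of all genes), among them Lrrc15 (13.02 to 13.26 in mutants, 13.36 to 13.86 in controls, difference -0.53). The Fam series, a naming group rather than a family by descent, had 11 of 73 lower and 2 higher (17.8% called). Within it Fam167a gave 7.54 to 8.19 in mutants and 8.90 to 9.65 in controls (difference -1.45, SE 0.13, adjusted p = 2.09e-08). Symbols that begin with Map and a digit had 4 of 28 lower and 1 higher (17.9% called), with the kinases Map3k6 (-0.45) and Map2k4 (-0.66) lower, and the Mapk symbols had 1 of 10 lower and none higher. Clock genes had 2 of 13 lower and 1 higher, though Per1, a period gene that glucocorticoids also induce, gave 8.09 to 8.57 in mutants and 8.92 to 9.31 in controls (difference -0.75, adjusted p = 0.00117).

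The same contrast was made at P15, on other arrays and slides. Of the 838 genes called lower at P10, 432 (51.6%) were also called lower at P15, where 10.1% of all tested genes were, and 59 differed between ages by the test of the difference itself. Of the 849 called higher, 214 (25.2%) were also called higher at P15, where 9.53% of all tested genes were, and 93 differed. Over all genes 341 (3.77%) passed that test. Gab1 (-1.33 at P15), Egr1 (-1.35), Dusp2 (-1.63), Dusp6 (-0.88), Fgf5 (-1.12), Padi1 (-0.86), Trpv6 (-1.83), Fxyd4 (-2.44), Cd3g (-1.26) and Ccl27a (-1.06) were all called lower at P15, and none differed between ages by that test. Among the large falls Dio3 (-2.86 at P15, adjusted p of the difference = 0.00343) and Upk1b (-3.33, 0.0314) had larger fitted differences at P15. Upk1b was at background on all P10 mutant arrays, so its P10 difference is a bound and cannot rank the ages. The Dio3 probe was not detected on every P10 mutant array. Lce3c gave 1.23 and Idi2 1.00 at P15, so their P10 falls had no counterpart there (adjusted p of the difference 0.00194 and 0.000326).

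Matrix and fat genes were among those whose differences changed with age. Col3a1 gave 0.29 at P15 (adjusted p of the difference = 0.0336), Col6a2 0.20 (0.0224), Sparc -0.06 (0.0132), Lum, the collagen-binding proteoglycan lumican (1.01 at P10), -0.02 (0.029) and Igfbp6 0.01 (0.0272). Adipoq gave -0.45 (0.00268), Plin4 -0.22 (0.00804) and Lipe -0.42 (0.00319). Over the lists, 3 of 6 fibrillar collagen genes and 8 of 20 adipocyte genes differed between ages, beside the 3.77% of all genes. Nnat changed sign, with 1.04 at P10 and -1.51 at P15 (1.46e-05). Krt42 (3.60 at P15, adjusted p of the difference = 2.24e-06), Defb4 (3.58, 0.00131) and Lcn2, a secreted siderophore-binding protein (1.00 at P10, 2.98 at P15, 0.000228), had larger rises at P15. DNA replication genes, with 1 of 23 called higher at P10, had 17 at P15, and 6 of them differed between ages.

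**Figure D5:**
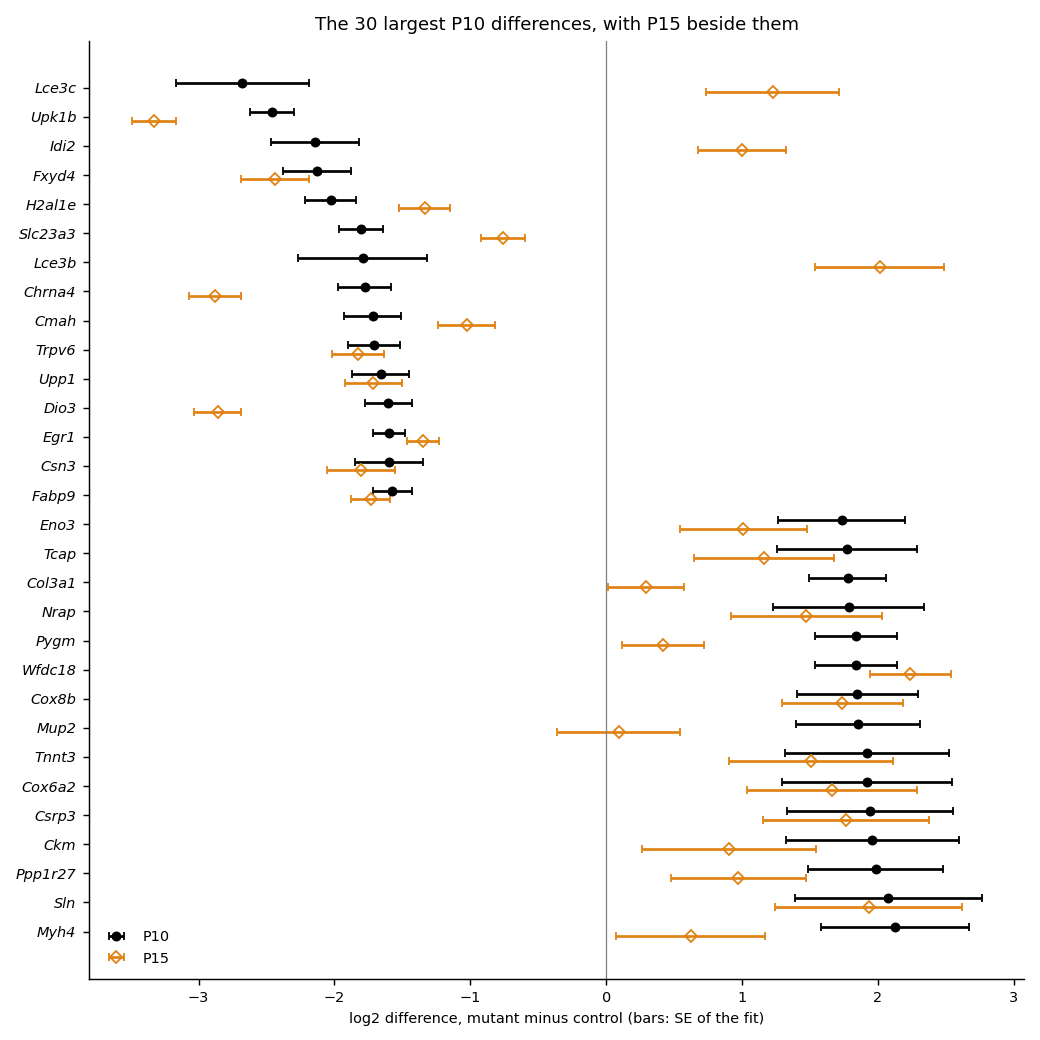
Fitted log2 differences, mutant minus control, of the 15 largest falls (top) and 15 largest rises (bottom) at P10 (black), with the P15 difference of the same gene (orange) and SEs as bars. Lce3c, Idi2 and Lce3b lie on opposite sides of 0 at the 2 ages, and the muscle genes Sln, Ckm and Cox6a2 have the widest bars.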

How the data were processed

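Total RNA of dorsal skin was labelled as biotin-cRNA and hybridised to Illumina BeadChips, per the labels' protocols. The deposited table held raw bead intensity for 25697 probes on 28 arrays, with a detection p-value per signal, per the file headers. The submitters' processing notes name GenomeStudio without version or options. A further deposited table of processed intensity values, scaled alike over arrays, of unstated method and 25.6% below 0, served as an alternative (floored at 16, log2).

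With limma 3.58.1 in R 4.3.3, signals were background-corrected by normexp on detection p-values (offset 16), quantile-normalized and set on a log2 scale (neqc). Probes with detection p below 0.01 on at least 6 arrays were tested (12834), each gene by its brightest probe (9045 genes, 2257 with several probes). The fit had 4 groups of age and genotype and 4 slides on all 28 arrays (21 residual degrees of freedom), and p-values were adjusted by Benjamini-Hochberg over all genes. The number of arrays limits the precision. A fold is given as "at least" where a probe was at background on all arrays of a group, against the lowest detected signal. The P15 and P10 differences were compared by their contrast in the same fit. The steps were tested on simulated data.

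Genes named are Gab1, the 15 largest rises and falls with 6 of 6 mutants on the called side, up to 3 called genes of smallest p from each of 74 lists and each symbol family in which at least 5 genes were called and most of them one way, and the brightest gene of a list without calls. Other list members given with values were chosen after these were seen. The comparison's arrays and all lists were chosen with earlier results of these data known. Counts of lists had no test. Symbols came from GEO's platform annotation, updated through gene IDs for 23962 of 23978 probes. Alternatives changed normalization, background, source of values, probe filter, probe choice, slide term, array weights, muscle content and the arrays included. Covariates for Xist and array brightness and the omission of controls 8 and 9 were added after seeing the data. Residuals of same-numbered mutant and control arrays at P10 correlated at -0.126 to 0.404 and over 0.1 for 1 of 6 numbers. These arrays lay on different slides, and for numbers 1 to 4 the control was outside the comparison. The correlations therefore cannot decide whether the compared arrays were paired, and pairing by position on a slide was not tested.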

Additional observations from a re-analysis of the deposited data

Results flagged for a closer look

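In 23 of 456 groups of 6 values tested, 1 array lay far from the other 5, and chance alone gives about 1 in 20 such groups. Control 7 accounted for 12 of the 23. It was the high array for the muscle genes Myh4 (8.84, the other controls 4.83 to 5.99), Ckm (11.28, others 7.71 to 8.87), Pygm (7.30, others 5.04 to 5.85), Eno3 (11.61, others 8.15 to 9.34), Casq1 (7.79), Des (10.39), Sgca (7.07), Myf6 (6.93), Chrna1 (7.15) and Cox7a1 (9.43). It was the low array among controls for Egr1 (12.23, others 12.63 to 12.77) and Ngfr, a nerve growth factor receptor (7.02, others 7.11 to 7.15). Control 8 was high for Pcna (7.58, others 5.67 to 6.34) and Psmc6, a proteasome subunit (5.97), and low for Pik3cb (9.35, others 10.02 to 10.39). Control 10 was high for Ankrd10 (7.68). Among mutants, number 4 was high for Adipoq (13.01, others 12.20 to 12.49) and Krt79 (11.26) and low for the metallothionein Mt1 (13.91), number 3 was low for Col5a1 (11.70) and high for Krt72 (13.17), and number 5 was low for Ckm (9.87, others 10.73 to 11.15) and high for Lrrc15 (13.26).

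The effect of genotype differed between ages, by the limma contrast of P15 minus P10, for 37 named genes. Values below are that contrast on the log2 scale with its adjusted p. Epidermal and surface genes with a higher effect at P15 were Lce3c (3.91, 0.00194), Lce3b (3.80, 0.00194), Krt42 (2.38, 2.24e-06), Defb4 (1.90, 0.00131), Lcn2 (1.98, 0.000228), Krt79 (0.86, 0.0336) and Itga3 (0.60, 0.0308). Idi2 (3.15, 0.000326) and Sqle (0.64, 0.0452) of sterol synthesis and the transporter Slc23a3 (1.04, 0.00859) also had higher effects at P15. Further genes of this direction were Tagln (1.44, 0.00322), the protease inhibitor Timp1 (0.80, 0.0268), the histone gene H3c1 (0.96, 0.0245), Mt1 (0.59, 0.0173) and Arhgap22 (0.70, 0.027).

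Matrix and fibroblast genes had lower effects at P15: Col3a1 (-1.48, 0.0336), Col5a1 (-0.67, 0.027), Col6a2 (-0.75, 0.0224), Sparc (-0.80, 0.0132), Lum (-1.03, 0.029), Pcolce (-0.93, 0.0285), Dpt (-0.83, 0.0419) and Igfbp6 (-1.05, 0.0272). Fat and lipid genes did so as well, namely Adipoq (-1.35, 0.00268), Lipe (-1.34, 0.00319), Plin4 (-1.07, 0.00804) and the acyltransferase Agpat2 (-1.11, 0.00267). The remaining lower effects at P15 were those of Nnat (-2.55, 1.46e-05), Dio3 (-1.26, 0.00343), Mfng (-1.36, 0.00732), Serping1 (-0.96, 0.00343), Chrna4 (-1.10, 0.0221), Upk1b (-0.87, 0.0314), Klk15 (-0.80, 0.0419), Krt82 (-0.83, 0.0111), Fgf22 (-0.68, 0.0173) and the mitochondrial ribosomal gene Mrps6 (-0.65, 0.018). For Upk1b and Defb4 the P10 difference is a bound, so their contrasts rest partly on signals at background.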

How the results depend on the processing

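Gab1 was called under all 29 alternatives, with differences of -1.49 to -1.12. The counts of 849 higher and 838 lower genes changed with the weight and choice of arrays. They were 2038 and 2263 with arrays weighted by quality, 1682 and 2071 on slide 1 alone, 470 and 378 on slide 2 alone, and 1393 lower with the 12 arrays alone. Leaving out single arrays gave 509 to 984 higher and 540 to 958 lower, lowest without control 6. The 341 genes that differed between ages became 207 with median scaling, 207 with no slide term, 1389 with weights, 614 with array brightness as a covariate and 551 without controls 8 and 9. Without single arrays they numbered 214 to 426, with 214 without mutant 1, 221 without control 6 and 220 without control 10. With the replicate number as a random block the counts stayed at 849, 838 and 341 and Gab1 at -1.31, and no call changed. The correlation within blocks was estimated at -0.00038, so this fit was close to the main fit, and other pairing was not tested. Of 223 named genes called, 79 kept the call under all 29 alternatives. Over 6462 values 571 lost the call and 10 changed sign. With median scaling Dcn gave -0.082 and Hnrnpab -0.14. Hnrnpa2b1 gave 0.17 as a mean of probes and Sec24d -0.22 on slide 2 alone. With the muscle covariate, which by construction takes up muscle differences, Sln gave -0.14, Ckm -0.15, Cox6a2 -0.12, Tnnt3 -0.018, Nrap -0.053 and Pgam2 -0.019. Other causes were not tested. Signals near background limit what dim probes such as Upk1b and Defb4 show.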

Other observations

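Genes of glucocorticoid and thyroid hormone response had 4 of 11 lower and 2 higher at P10, beside 9.26% and 9.39% of all genes, Dio3 and Per1 being among the 4. Chaperone and unfolded protein genes had 5 of 23 higher and 1 lower, 3 higher without mutant 1, mutant 2 or control 7, 2 higher without control 6, and a median of -0.13 with median scaling. Schwann cell and nerve genes had 2 of 11 each way, with Ngfr and Egr2 lower under all 29 alternatives and the myelin gene Pmp22 (0.53) and the nerve growth gene Gap43 (0.84) higher. Cytosolic ribosomal proteins had 5 of 40 lower and 1 higher with a median of -0.06, and 8 lower, none higher and a median of -0.39 with median scaling. Without control 6 there were 2 lower, and 3 without mutant 2, mutant 3 or control 10.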
